A study of Mus musculus with 4 samples.

Results

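Genes of the oligodendrocyte lineage and of myelin were followed in mouse neurospheres and in R1 embryonic stem (ES) cells, measured on Affymetrix MG_U74Av2 expression arrays. The set held 9 named genes: the transcription factors Nkx2-2, Olig1 and Olig2 and the myelin genes Mbp, Mog, Mag, Cnp, Mobp and Cldn11. A probe set, the group of short oligonucleotides that reads a transcript, was taken when the platform annotation gave it a single gene symbol from this set. Of 12422 probe sets other than controls, which covered 8251 genes, 13 met this rule and covered 7 of the 9 genes. Olig1 and Olig2 were paired with no probe set by this rule and were not analysed here.

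The neurospheres, spheres of neural stem and progenitor cells grown in suspension, came from E13.5 telencephalon (the embryonic day) and were supplemented with FGF2; they gave 1 array. According to the labels, contaminating astrocytes, glia and oligodendrocytes were present among them. R1 cells, an established mouse ES line, gave 2 arrays as unattached embryoid bodies kept for 48 hours with LIF, a cytokine that maintains ES cells. Titles call these arrays aggregation and suspension, and no label says that they came from separate cultures, so their spread may be technical. R1 cells on gelatin under standard conditions, also with LIF, gave 1 adherent array.

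Oligodendrocytes wrap axons of the central nervous system in myelin, a compacted membrane sheath. They arise from precursors marked by OLIG1, OLIG2 and, in part, NKX2-2, factors that Sonic hedgehog signalling induces in the ventral neural tube. Myelin genes come on later, as precursors stop dividing and mature: Mbp and Mobp encode proteins of compact myelin, Mag and Mog surface glycoproteins, Cnp an enzyme of the cytoplasmic channels and Cldn11 the claudin of myelin tight junctions.

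Signals are linear values after each array was rescaled to a 2% trimmed mean of 500. They were compared with the median of all probe sets on the same array, which was 239 for neurospheres, 222 for aggregation, 234 for suspension and 177 for adherent cells. The 10th percentile lay at 33.3, 29.1, 33.3 and 17.3 in the same order; signals near it were not told apart from background, since no detection calls were used. The deposited trimmed means were 29.9 for neurospheres and 33.0 for aggregation, against 1501 for suspension and 1501 for adherent cells. The comparison thus rests on the rescaling. The 2 embryoid body arrays fell on opposite sides of this split, and neurospheres shared a side with aggregation alone. The part of the split in the differences and in the spread was not tested. Marker lists were read as a check of the labels. These lists were drawn up with earlier results of these data known, so the check is not independent. Of the neural progenitor markers 5 of 11 rose and 0 fell in neurospheres, and 9 of 10 pluripotency markers fell and 0 rose. In the same test, explained with Nkx2-2, 8.38% of all probe sets tested rose and 12.1% fell. Fabp7, Dbi, Nes and Hes6 rose by 9.42, 4.40, 3.98 and 2.77 on the log2 scale explained with Nkx2-2, the Nes call ending without the intensity trend. Nr0b1, Pou5f1, Dppa5a and Klf4 fell, with differences of -7.08, -6.89, -6.53 and -5.44. These values are from the brightest probe set of each gene. The other probe set of Nes gave 0.67, and those of Nr0b1, Pou5f1 and Klf4 gave -0.14, 0.74 and -0.03. The rest of these genes had no other probe set.

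Most of the set was dim in neurospheres. Of the 13 probe sets, 11 stayed below the array median there: all of those for Mog, Mag, Cnp, Mobp and Cldn11, and 1 of the 2 for Mbp. The exceptions were Nkx2-2, at the 83.3rd percentile of the neurosphere array, and the other Mbp probe set, at the 63.7th. In R1 cells 10 of 13 were below the median in aggregation, 12 in suspension and 12 under adherent culture. On all 4 arrays together, 8 of 13 stayed below, against 35.3% of all probe sets. In RNA from whole cultures, fewer cells of a type and less RNA per cell cannot be told apart.

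**Figure D1:**
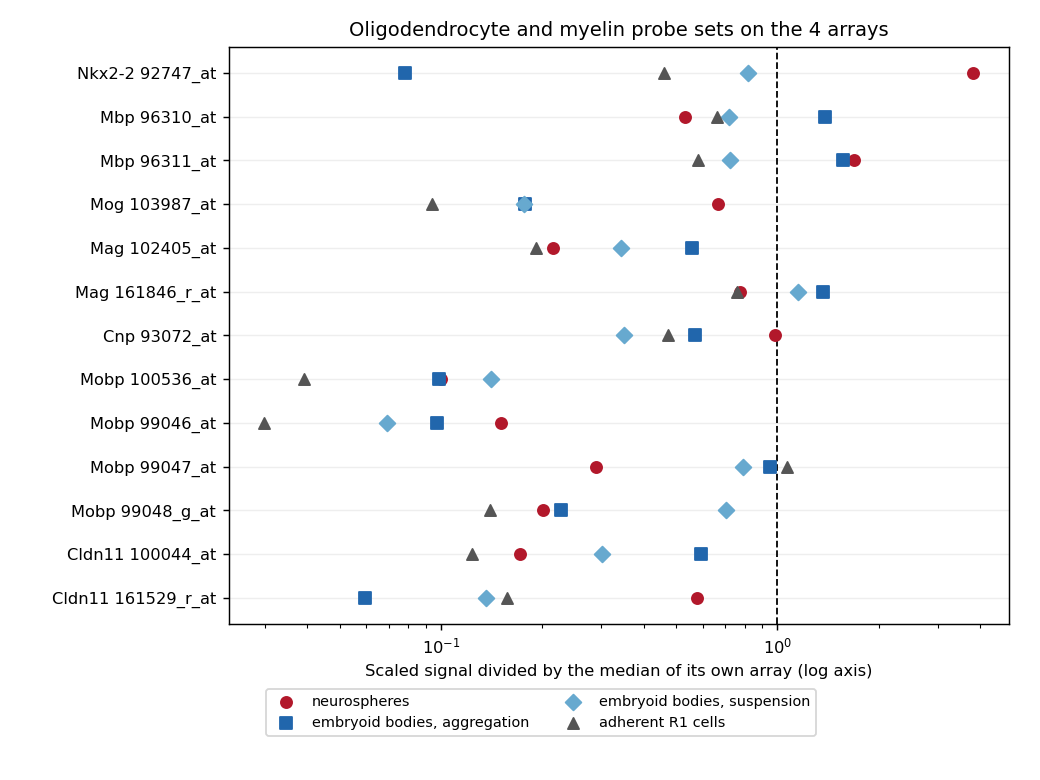
Scaled signal of each of the 13 probe sets divided by the median of its own array, on a log axis; each point is 1 array and the dashed line is the array median. In neurospheres only Nkx2-2 (3.82) and Mbp 96311_at (1.69) lie right of the line, and Cnp lies just left of it (0.981).

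Nkx2-2, a homeobox factor of ventral progenitors and of differentiating oligodendrocyte precursors, was the member that differed most. Its probe set (92747_at) had a signal of 912 in neurospheres, against 17.4, 191 and 81.6 in aggregation, suspension and adherent cells. The neurosphere array was above every R1 array and 4.76-fold above the nearest. With 1 neurosphere array such separation is common: 34.8% of all probe sets were above every R1 array and 25.5% below. At least 2-fold separation upward was seen for 9.78%. Within R1 cells the 2 embryoid body arrays lay far apart (104 ± 123, SD, n = 2), and aggregation was below the 10th percentile of its array.

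In limma's test of neurospheres against R1 cells, in which embryoid bodies and adherent cells had equal weight, Nkx2-2 rose by 3.11 ± 0.85 (SE) on the log2(signal + 32) scale, with an adjusted p of 0.00934. This scale understates changes of dim genes. It was 1 of the 5 member probe sets that had reached the array median on any array and so were tested, and the other 4 were not called. Among all 8031 probe sets tested, 20.4% were called in either direction, 8.38% higher and 12.1% lower. The spread in this fit came from the 2 embryoid body arrays alone, and neurospheres and adherent cells, with 1 array each, were taken to vary as much. That left 1 residual degree of freedom per probe set, against 25.38 for the variance prior drawn from all probe sets tested. The SE and adjusted p of Nkx2-2 thus rest mostly on this prior. They reflect little of the distance between its own 2 embryoid body signals. The direction held in each setting tried, but the call ended without the intensity trend of the variance (adjusted p = 0.112) and when all probe sets were tested without the signal filter (adjusted p = 0.0591). Nkx2-2 had passed that filter through the neurosphere array alone.

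**Figure D2:**
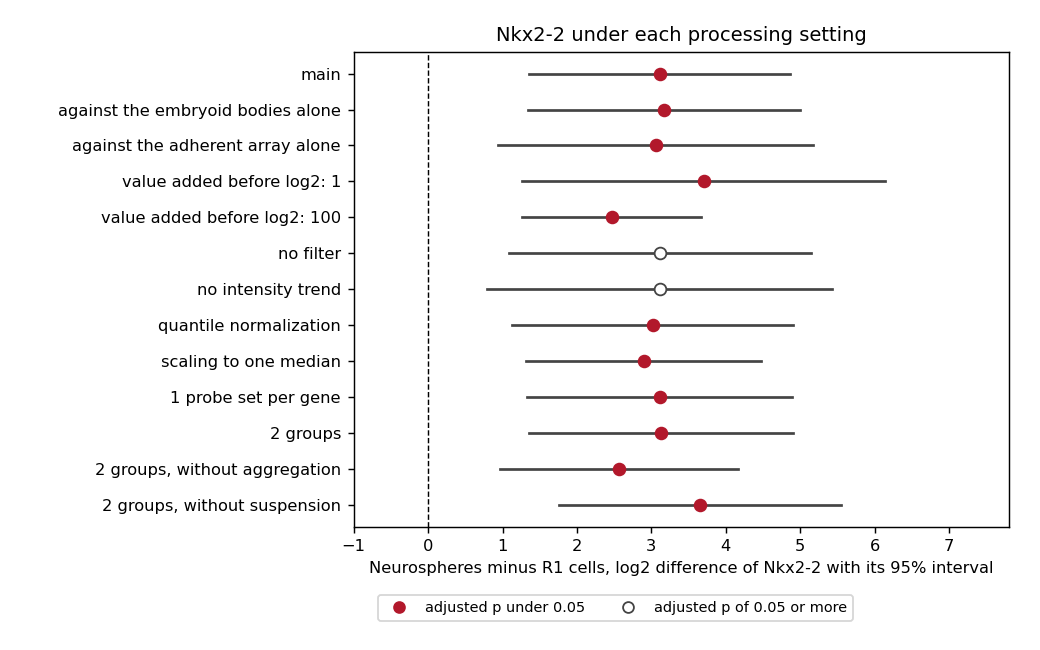
Log2 difference of Nkx2-2, neurospheres minus R1 cells, with its 95% limma interval under the main and 12 other processing settings (filled, adjusted p under 0.05). All points lie between 2.47 and 3.70, and those without the filter or without the intensity trend are open.

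The stretch before the start of Nkx2-2 is shown because this was the called member. It spans 250 bases, chr2:147186403-147186652 on the minus strand (RefSeq, GRCm38.p6). Capitals mark the E-box CANNTG, the motif of basic helix-loop-helix factors such as OLIG2, searched on both strands. It matched at 3 places, none overlapping another motif searched, and 12.2% of the 32851 windows of this length before annotated starts held 3 or more. GACCACCCA, a GLI motif of Hedgehog signalling, did not match in this window, and 0.225% of windows held it. TATAAA did not match either and was held by 12.4%.
Nkx2-2: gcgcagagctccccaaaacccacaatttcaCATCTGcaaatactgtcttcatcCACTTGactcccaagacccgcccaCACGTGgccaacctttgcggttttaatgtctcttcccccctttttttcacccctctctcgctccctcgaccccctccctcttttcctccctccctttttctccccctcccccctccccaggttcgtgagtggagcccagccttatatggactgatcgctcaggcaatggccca

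The genes whose brightest probe set had the most similar pattern to Nkx2-2, by Euclidean distance between log2 values over the 4 arrays among 8250 other genes, were Mfhas1 (distance 0.59), Ccdc28b (0.67) and Tnc (0.69), the matrix glycoprotein tenascin-C. With 4 arrays this is a description only. Tnc had a signal of 631 in neurospheres, against 20.2, 274 and 79.5 in aggregation, suspension and adherent cells. The low aggregation value, also seen for Mfhas1 (28.5) and Ccdc28b (29.3), is part of the pattern by which these genes were picked.

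Mbp encodes myelin basic protein, which holds the cytoplasmic faces of compact myelin together. Its probe set 96311_at had a signal of 403 in neurospheres, against 347, 169 and 102 in aggregation, suspension and adherent cells. Its probe set 96310_at had 127 in neurospheres, against 306, 168 and 117 in the same order of R1 arrays. The first was highest in neurospheres, only 1.16-fold above aggregation; in the second, neurospheres lay between the R1 arrays. The log2 differences were 1.17 (95% interval -0.18 to 2.53, limma adjusted p = 0.225) and -0.31 (-1.86 to 1.24, adjusted p = 0.810). Both probe sets were above the array median in aggregation, at 1.56 and 1.38 times it. For the pattern of 96311_at, the nearest genes were Olfr93 (distance 0.28), Aak1 (0.34) and Gata4 (0.34).

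Mog encodes a glycoprotein of the outermost myelin layer and is a late marker of maturation. Its probe set (103987_at) had a signal of 159 in neurospheres, against 39.4, 41.1 and 16.6 in aggregation, suspension and adherent cells. Neurospheres were 3.87-fold above the nearest R1 array, yet at 0.666 times their own array median. The R1 signals lay near the 10th percentile, so the ratio is uncertain. Among the 9 pluripotency markers that fell, neurosphere signals ran from 28.5 (Nr0b1) to 631 (Fgf4). A signal of 159 therefore does not by itself show that Mog was expressed there. Mog was below the median on all 4 arrays and was tested only without the filter, where the log2 difference was 1.69 (95% interval 0.57 to 2.80) and the adjusted p was 0.0620.

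Mag encodes a glycoprotein of the myelin layer that faces the axon. Probe set 161846_r_at had a signal of 185 in neurospheres, against 303, 269 and 134 in aggregation, suspension and adherent cells. Probe set 102405_at had 51.5 in neurospheres, against 124, 79.9 and 33.8. Both gave the same order of arrays, with neurospheres below the embryoid bodies and above adherent cells. The log2 differences from R1 cells were -0.08 (95% interval -1.44 to 1.28, limma adjusted p = 0.946) and -0.16 (-1.49 to 1.17, adjusted p = 0.907, fit without filter).

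Cnp encodes the enzyme CNPase, which appears earlier in the lineage than most myelin proteins. Its probe set (93072_at) had a signal of 234 in neurospheres, against 127, 81.9 and 83.8 in aggregation, suspension and adherent cells. Neurospheres were 1.85-fold above the nearest R1 array and at 0.981 times their array median, the nearest of the 11 dim probe sets to it. The difference of 1.09 did not pass the test without the filter (95% interval -0.50 to 2.69, limma adjusted p = 0.400).

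Mobp encodes a basic protein of compact myelin, and its 4 probe sets did not share a pattern. Probe set 99047_at had a signal of 69.1 in neurospheres, against 210, 185 and 189 in aggregation, suspension and adherent cells. It was the single member probe set with neurospheres below every R1 array, at 0.374 times the nearest, and its log2 difference was -1.16 (95% interval -2.76 to 0.45, limma adjusted p = 0.317). Probe set 99046_at had 36.0 in neurospheres, against 21.6, 16.2 and 5.27, with neurospheres highest at a level near background (0.64, adjusted p = 0.187). Probe set 100536_at had 23.9, against 21.9, 32.8 and 6.91, and 99048_g_at had 47.8, against 50.3, 164 and 24.8. In these, neurospheres fell within the range of the R1 arrays, and the differences were 0.22 and -0.09 (adjusted p = 0.711 and 0.954). The last 3 were below the median on all 4 arrays and their p-values come from limma without the filter.

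The stretch before the start of Mobp is shown for its repeats of ACAAAG, a motif that SOX factors such as SOX10 recognise. It spans 250 bases, chr9:120149492-120149741 on the plus strand (RefSeq, GRCm38.p6), and capitals mark the motif on either strand. It matched at 6 places, none overlapping another motif searched. Of all 32851 windows, 16.5% held the motif at least 1 time and 1 window, that of Mobp itself, held 6 or more. Since Mobp was shown for these repeats, that count is not an independent background. Among the measured members, 6 of 7 genes had promoter windows. The motif also matched 1 time before Cnp and in 2 of the 3 windows of Mag, which overlap and hold the same site.
Mobp: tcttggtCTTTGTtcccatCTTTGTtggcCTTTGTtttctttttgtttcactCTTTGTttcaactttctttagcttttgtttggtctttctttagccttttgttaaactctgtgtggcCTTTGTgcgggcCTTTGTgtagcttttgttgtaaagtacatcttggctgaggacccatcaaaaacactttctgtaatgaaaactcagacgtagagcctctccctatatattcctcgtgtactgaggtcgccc

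Cldn11 encodes the claudin that seals the layers of central myelin. Probe set 161529_r_at had a signal of 137 in neurospheres, against 13.2, 31.8 and 27.9 in aggregation, suspension and adherent cells. Probe set 100044_at had 40.9 in neurospheres, against 132, 70.1 and 21.8. Neurospheres were 4.32-fold above the nearest R1 array in the first, whose embryoid body signals were below the 10th percentile on both arrays, and lay between the R1 arrays in the second. The neurosphere signal of 137 also lay within the range of the pluripotency markers given with Mog. The log2 differences without the filter were 1.58 (95% interval 0.56 to 2.60, limma adjusted p = 0.0578) and -0.19 (-1.46 to 1.07, adjusted p = 0.879). The first belongs to the _r_at class, whose probes were chosen under relaxed design rules, as does Mag 161846_r_at.

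Across the 13 probe sets, neurospheres were above every R1 array in 6, against 34.8% of all probe sets, and below every R1 array in 1, against 25.5%. At least 2-fold separation from every R1 array was seen for 3 higher (Nkx2-2, Mog and Cldn11 161529_r_at), against 9.78% of all probe sets, and for 1 lower (Mobp 99047_at), against 8.03%. Mog and Cldn11 161529_r_at were among the 11 dim probe sets, and of all probe sets below the median in neurospheres 6.3% were separated in that way. The median log2 difference of all 13 in limma without the filter was 0.22, and that of all 12422 probe sets was 0.16. That fit called 0 of the 13, against 4.81% of all probe sets higher, 5.67% lower and 10.5% in either direction, and 4 of the 13 had an unadjusted p under 0.05, against 23.7% of all probe sets. Of the 4 genes with several probe sets, only the Mag probe sets agreed within 0.1 in log2 difference; those of Mbp spanned -0.31 to 1.17, Mobp -1.16 to 0.64 and Cldn11 -0.19 to 1.58.

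**Figure D3:**
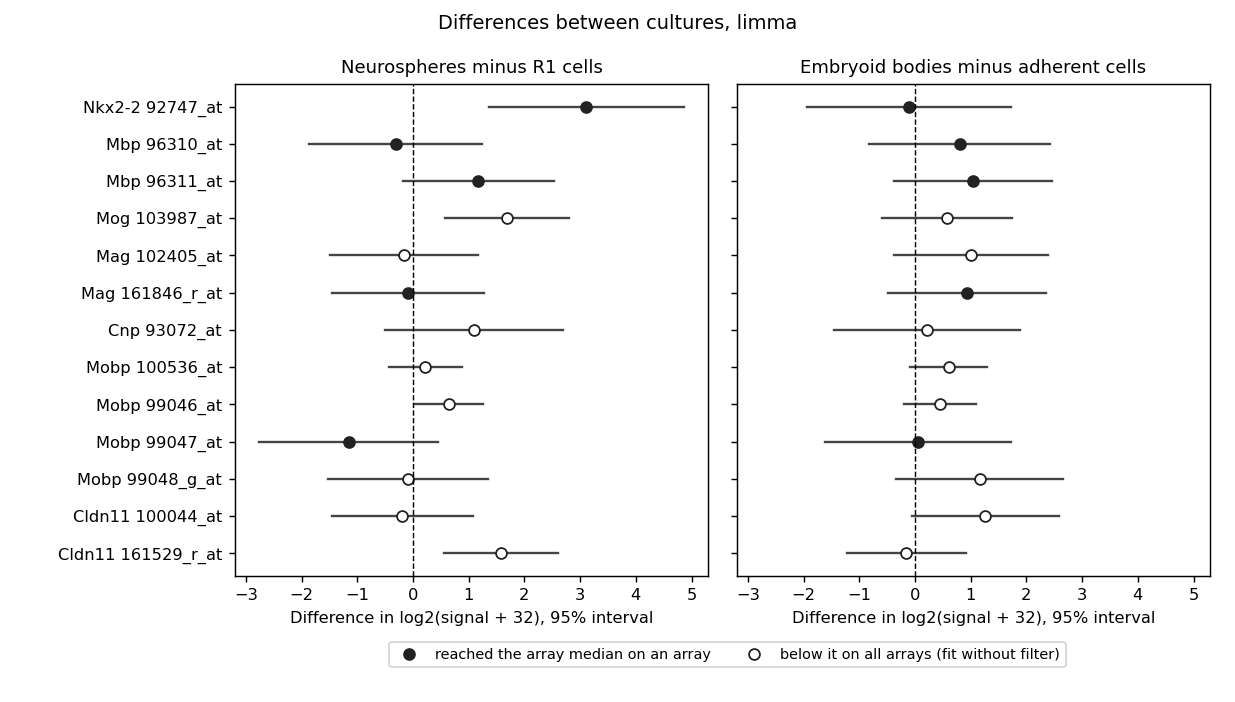
Log2 differences of the 13 probe sets with 95% limma intervals: neurospheres minus R1 cells (left) and embryoid bodies minus adherent cells (right). Filled points reached the array median on an array, open points did not and come from the fit without the filter; on the left only Nkx2-2 (3.11) is called, and on the right no probe set is.

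Embryoid bodies were compared with adherent cells to see whether unattached culture moved the same genes. In limma's test 0 of 5 member probe sets were called, against 0.299% of all probe sets tested higher, 0.187% lower and 0.486% in either direction, and 0 of the 13 had an unadjusted p under 0.05 without the filter, against 10.3% of all probe sets. The embryoid body mean was above the adherent array for 11 of 13, with differences between -0.16 and 1.26, against 63.2% of all probe sets. The median was 0.60, against 0.40 over the 4391 probe sets below the median on all 4 arrays and 0.23 over all 12422. The adherent array was the lowest of the 4 for 9 of 13, against 42.2% of all probe sets, and it also had the lowest 10th percentile (17.3). The part of this low end in the differences was not tested.

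Other genes of the lineage were read from lists drawn up with earlier results of these data known. Each was represented by its brightest probe set. Over all 8031 probe sets tested, the median log2 difference was 0.10, and 8.38% were called higher and 12.1% lower in neurospheres. The counts of each list below are to be read beside these shares. Of 20 further precursor and lineage genes, 10 had a probe set and 9 were tested: 3 rose in neurospheres, 1 fell and 5 were not called (median 0.62). Ptprz1, a receptor phosphatase of glial precursors, rose by 6.23 ± 0.80 (SE) and Myt1, a zinc finger factor of progenitors and precursors, by 3.09 ± 0.91. Both passed the filter through the neurosphere array alone, as did Fabp7 above and Cntn1, Gas1, Hes5, Hey1 and Sparcl1 below. The calls of these genes held in the fit without the filter. Sox10, the SOX factor that switches on myelin genes, rose by 1.16 ± 0.39 (limma adjusted p = 0.0357). Its signal was 1194 in neurospheres, against 669, 836 and 356 in aggregation, suspension and adherent cells. Myrf, which drives myelin genes in maturing oligodendrocytes, fell by 1.81 (adjusted p = 0.0178), with 104 in neurospheres, against 430, 577 and 394. The other Sox10 probe set gave 0.26, and against the embryoid bodies alone the brighter one gave 0.65 (adjusted p = 0.311). Leaving out an array required R1 cells to be fitted as 1 group, since the 3 groups then left no replicate. With R1 as 1 group the Sox10 call ended with all arrays present (0.99, adjusted p = 0.199), while that of Myrf held (-1.86, adjusted p = 0.0370) and ended without aggregation (-1.91) or suspension (-1.71). Both calls also ended without the intensity trend or the filter, that of Sox10 under either other scaling and that of Myrf against adherent cells alone (-1.65).

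Of 30 further myelin and mature oligodendrocyte genes, 14 had a probe set, 8 were tested, 2 rose and 0 fell (median 0.41). Sirt2, a deacetylase abundant in myelin, rose by 3.09 ± 0.57 (SE), with a signal of 1476 in neurospheres, against 295, 180 and 86.7 in aggregation, suspension and adherent cells. Car2, a carbonic anhydrase of oligodendrocytes and other cells, rose by 1.61 ± 0.33, and its call ended without the intensity trend. The other 6 of the 14 were below the median on all 4 arrays. Of 15 genes of axon contact and peripheral myelin, 6 were tested, 2 rose and 0 fell (median 1.57). Fyn, a kinase that acts in myelination, rose by 3.44 ± 0.50 and Cntn1, a contact protein of axons and glia, by 3.30 ± 0.65.

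In the Hedgehog pathway, 7 of 14 genes were tested, 2 rose and 2 fell (median 0.28). Gas1, a co-receptor, rose by 4.41 ± 0.63 (SE) and Smo, the signal transducer, by 2.58 ± 0.83. Smo passed the filter through the neurosphere array alone, and its call ended against adherent cells alone (2.06, adjusted p = 0.164), with 1 added (adjusted p = 0.0506) and, with R1 as 1 group, without aggregation (2.59, against 2.76 with all arrays). Gli1 and Ptch1, which are both pathway components and target genes, fell by 2.41 and 2.12. Gli1 had a signal of 127 in neurospheres, against 573, 817 and 966 in aggregation, suspension and adherent cells. Ptch1 had 367 in neurospheres, against 1156, 1225 and 2451; its dimmer probe set differed by -0.14. Shh, the ligand, did not pass the test (0.28, limma adjusted p = 0.783).

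Of 14 E proteins, which pair with OLIG factors, and repressors of oligodendrocyte differentiation, 12 were tested, 5 rose and 0 fell (median 1.48). The E proteins Tcf4 and Tcf12 rose by 2.47 ± 0.48 and 2.29 ± 0.43 (SE), and the Notch targets Hes5 and Hey1 by 3.28 ± 0.75 and 2.95 ± 0.74. Tcf3, also an E protein, did not pass (0.29, limma adjusted p = 0.691). Of 14 astrocyte markers 11 were tested, 3 rose and 1 fell, with a median of 1.15. The summed signal of the 12 astrocyte markers with a probe set was 22677 in neurospheres, against 8752, 7492 and 10824 in aggregation, suspension and adherent cells. Mt3 supplied 12547 of the neurosphere sum, and without it the sums were 10130 in neurospheres, against 7631, 6900 and 10056. Aldoc, Mt3 and Sparcl1 rose by 4.33, 3.93 and 3.88, and Gja1 fell by 1.39. The Gja1 call ended against the embryoid bodies alone (-0.84, adjusted p = 0.0501), without the intensity trend (adjusted p = 0.135) and, with R1 as 1 group, without aggregation (-1.24, against -1.21 with all arrays). The part of other cell types in the values of the members was not tested.

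**Figure D4:**
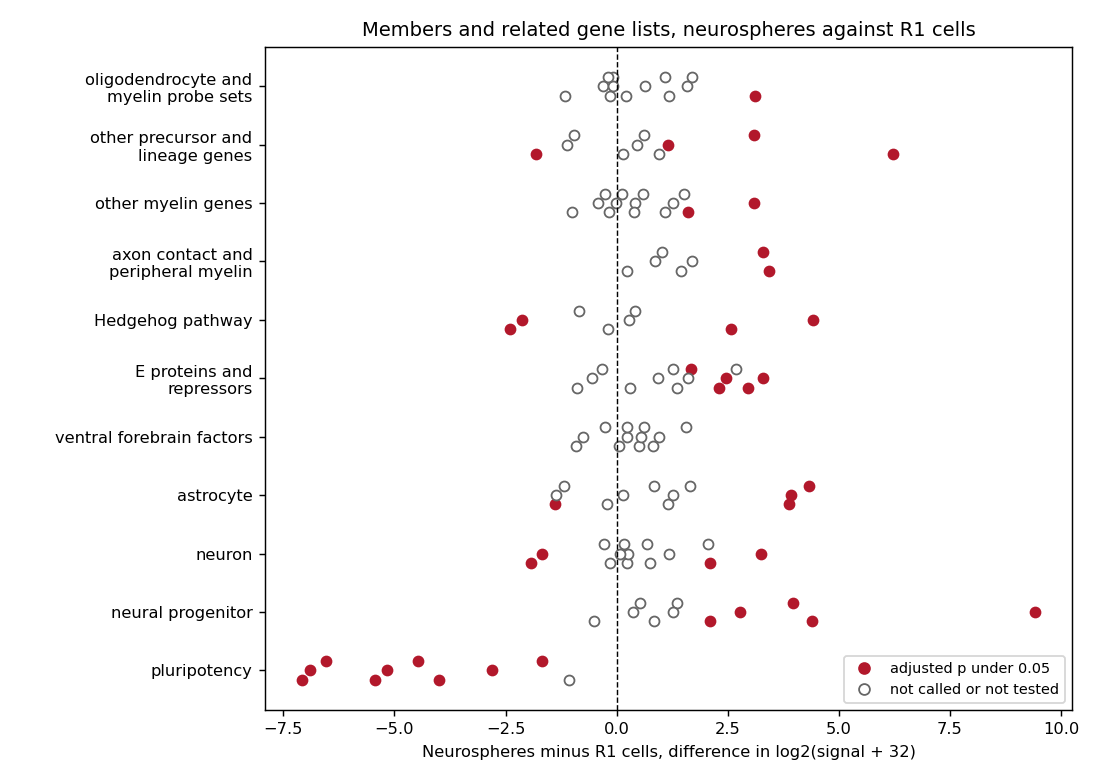
Log2 differences, neurospheres minus R1 cells, for the 13 oligodendrocyte and myelin probe sets (top) and the genes of each related list (1 point a gene, filled where the adjusted p was under 0.05). Among the members only Nkx2-2 (3.11) is filled, and among the other myelin genes only Sirt2 (3.09) and Car2 (1.61) are; Ptprz1 (6.23), a precursor gene, lies farther right than these.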

How the data were processed

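Total RNA was hybridised to 4 arrays, 1 per sample. The deposited table holds linear signal intensity per probe set, computed by the authors with MAS5 per the submitters' processing notes; neither its version nor its scaling target was stated in the labels or files. Each array was rescaled to a trimmed mean of 500 (2% left out at each end), 32 was added and log2 was taken. Control probe sets (66) were left out; of the others, 10833 were paired with 1 gene symbol in the platform annotation, 396 with several and 1193 with none. Probe sets reaching the array median on at least 1 array (8031 of 12422) were fitted in 1 limma model (limma 3.58.1, R 4.3.3) with 3 groups and a variance prior with an intensity trend (1 residual and 25.38 prior degrees of freedom). Two-sided p-values received the Benjamini-Hochberg adjustment across every probe set fitted, and 0.05 was the threshold. The code was tested on simulated data. Members below the median on all arrays were tested in the same model without the filter.

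The members, lists and tests were chosen with earlier results of these data known. All member probe sets are named; of each other list, up to 4 called genes by size are named, or the 2 brightest where none was called. Shh and Tcf3 were named after their values were seen; for Nkx2-2 and Mbp the 3 genes nearest in pattern are given. Scans were made on the same day, with 1 fluidics module per array, so module and sample cannot be told apart. Precision is limited by how few arrays there are. Alternatives changed the added value, filter, trend, scaling, probe set choice, grouping and arrays used. Promoter windows come from RefSeq (GRCm38.p6).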

Additional observations from a re-analysis of the deposited data

How the results depend on the processing

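The count of 11 of 13 probe sets below the array median in neurospheres was the same under quantile normalization and scaling to one median. Neither setting can test it, since both keep the order of probe sets within an array. The call of Nkx2-2 held under 10 of 12 alternatives (2.47 to 3.70, adjusted p 0.00276 to 0.112); with R1 as 1 group, which leaving out an array required, Nkx2-2 gave 3.13 with all arrays, 2.57 without aggregation and 3.66 without suspension, with 1 member call each. That count was 0 without the filter, 0 without the intensity trend and 0 with a filter on the mean, which left Nkx2-2 out. Added after seeing the data, the fit without the filter gave 0 against embryoid bodies alone, 0 against adherent cells alone, 0 with 1 added, 0 without the trend, 0 under quantile normalization, 1 under median scaling, 1 with R1 as 1 group with all arrays and without either embryoid body array, and 3 with 100 added, where Mog (1.02, adjusted p 0.043) and Cldn11 161529_r_at (0.93, adjusted p 0.0397) joined Nkx2-2.

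Signs of uncalled differences turned. Against adherent cells alone, Mbp 96310_at gave 0.0942, Mag 102405_at 0.343, Mag 161846_r_at 0.387, Mobp 99048_g_at 0.4919 and Cldn11 100044_at 0.4388. Mobp 99048_g_at gave 0.0047 with 1 added and 0.2242 without suspension, and Mobp 100536_at gave -0.0818 against embryoid bodies alone. For embryoid bodies over adherent cells, Nkx2-2 gave 0.0265 with 100 added, Cnp -0.1386 and -0.0557 and Mobp 99047_at -0.2531 and -0.2653 under quantile normalization and median scaling. The cause was not tested.

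Over all probe sets, calls for neurospheres were 673 higher and 969 lower, against 234 and 255 without the trend, 541 and 1370 under median scaling, which moved the median difference to -0.13. With R1 as 1 group they were 444 and 650, and in that fit 313 and 461 without aggregation and 376 and 516 without suspension. For embryoid bodies they were 24 and 15, against 46 and 28 with 1 added, 21 and 8 with 100 added, 40 and 23 with the mean filter, 16 and 2 under quantile normalization, 18 and 6 with 1 probe set per gene, 40 and 392 under median scaling (median -0.24), and 0 in limma without the filter or the trend (1279 and 777 at an unadjusted p under 0.05). No paired analysis was possible because neurospheres and adherent cells gave 1 array each.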

Other observations

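Homeobox and basic helix-loop-helix factors of the forebrain and neural tube were mostly dim. The list, which held Pax6, Neurog1, Neurog2 and Neurod1, was not limited to the ventral region where Nkx2-2 is induced. Of 15 listed genes 12 had a probe set, and 9 of these stayed below the median on all 4 arrays, against 35.3% of all probe sets. Of 3 tested 0 were called in limma, against 20.4% of all probe sets tested. The count of calls was 0 also in the fits without the filter and without the intensity trend. Irx3, a homeobox factor, had a signal of 467 in neurospheres, against 305, 315 and 162 in aggregation, suspension and adherent cells (0.96, adjusted p = 0.254). Gsx1, a factor of the ventral telencephalon, had 236 in neurospheres, against 180, 235 and 111 (0.54, adjusted p = 0.640).

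Of 16 neuron markers 14 had a probe set and 7 were tested: 2 rose in neurospheres and 2 fell, against 8.38% and 12.1% of all probe sets tested. Their summed signal was 9091 in neurospheres, against 7912, 8783 and 6174 in the same order of R1 arrays; without Tubb3, the brightest, the sums were 3182 in neurospheres, against 3483, 4503 and 3127. Map2, a dendritic microtubule protein, rose by 3.26 and Gap43, a growth cone protein, by 2.10; both passed the filter through the neurosphere array alone. The Map2 call ended under 7 alternatives, among them either R1 group alone (3.03 and 3.48) and R1 as 1 group (3.18, adjusted p = 0.0679). The Gap43 call ended without the filter, without the intensity trend and, with R1 as 1 group, without aggregation (1.94) or suspension (2.26). Stmn2, a microtubule regulator of neurons, fell by 1.93, though its other 2 probe sets gave -3.26 and 1.35, and Ina, a neuronal intermediate filament, fell by 1.67, a call that ended without suspension with R1 as 1 group (-1.38, against -1.69 with all arrays). The calls of Stmn2 and Ina also ended without the intensity trend.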
